A study of Mus musculus with 18 samples.

Results

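The genes described here encode proteins with which a nerve terminal stores and releases neurotransmitter. They were chosen by name from the count table: a row was taken where its symbol equalled 1 of 39 listed symbols, and 39 of the 54446 rows of the table were found in this way. All 39 passed the filter on low counts in every comparison. By role they comprised 14 genes of the calcium sensor families (12 synaptotagmins, not all of which bind calcium, and both Doc2 genes), 5 SNARE genes, 2 complexins, 10 genes of vesicle proteins and 8 genes of the active zone and of vesicle priming.

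Neocortex was taken from 6 mice of the outbred CD-1 stock. Plasmid DNA was electroporated in utero into the ventricular wall at E14.5, and the brains were taken at postnatal day 7. Per the labels, 3 mice received an empty plasmid with Gfp cDNA (GFP mice 1 to 3), 2 mice human FOXP2 with Gfp (huFOXP2 mice 1 and 2) and 1 mouse the mouse cDNA with Gfp (moFoxp2 mouse 1). The 3 mice with either cDNA are called FOXP2 mice. FOXP2 is a forkhead transcription factor. From sagittal sections of 300 µm, 3 samples per mouse were cut out and pooled, of layers 2-3 (L2-3), of layer 4 (L4) and of layers 5-6 (L5-6), which gave 18 libraries. Per the labels, cells were GFP-positive in L4 and GFP-negative in the other samples; no promoter of the plasmids is named. The account of the dissection calls both L5-6 and L2-3 infragranular, so the layers were taken from the sample titles. In libraries titled L2-3, 8 markers of layer 2-3 neurons summed to 1490 to 2086 CPM (TMM-scaled counts divided by library size, the usual CPM unit) and 10 markers of layer 6 and subplate neurons to 162 to 226 CPM, beside 594 to 1132 CPM and 719 to 1301 CPM in those titled L5-6. Each library therefore holds dissected tissue with all of its cell types and not sorted cells, and in such bulk samples fewer cells of a type and less RNA per cell cannot be told apart.

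As background, a synaptic vesicle fuses when the SNARE proteins on the vesicle (synaptobrevins, encoded by Vamp genes) and on the plasma membrane (syntaxin and SNAP-25) zip into a bundle. Complexins clamp and assist this bundle, and a synaptotagmin triggers fusion when calcium enters the terminal. RIM, bassoon and piccolo organise the release site, Munc13 proteins (Unc13 genes) make vesicles ready for fusion, and synapsins hold a reserve of vesicles. In the first postnatal weeks the cortex forms most of its synapses, and several families exchange paralogues as terminals mature, among them a shift towards synaptotagmin 2, synaptobrevin 1 and complexin 1 in fast-releasing terminals.

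RefSeq promoter windows on GRCm38.p6, each 250 bases before to 50 after a start, were matched by symbol for 27 of the 39 genes (34 windows). The sequences of 4 genes are shown because 3 of them, Syt2, Vamp1 and Cplx1, gained on a paralogue from L2-3 to L4 in all 6 mice and Syn1 alone held a cAMP response element. Each is written 5′ to 3′ and ends at the RefSeq start or, for Vamp1 and Syn1, where the annotated GENCODE gene begins. Capitals mark TGACGTCA, the letters of that element.
Syt2, chr1:134646362-134646611, plus strand: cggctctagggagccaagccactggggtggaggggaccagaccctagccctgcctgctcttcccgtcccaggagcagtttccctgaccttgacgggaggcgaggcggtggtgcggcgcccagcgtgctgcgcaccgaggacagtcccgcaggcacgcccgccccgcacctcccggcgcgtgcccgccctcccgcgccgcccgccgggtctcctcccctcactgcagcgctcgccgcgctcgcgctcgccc
Vamp1, chr6:125215331-125215550, plus strand: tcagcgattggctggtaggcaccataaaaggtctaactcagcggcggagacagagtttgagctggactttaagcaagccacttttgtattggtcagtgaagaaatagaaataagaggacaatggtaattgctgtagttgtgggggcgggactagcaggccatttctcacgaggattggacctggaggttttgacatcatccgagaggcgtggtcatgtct
Cplx1, chr5:108550028-108550277, minus strand: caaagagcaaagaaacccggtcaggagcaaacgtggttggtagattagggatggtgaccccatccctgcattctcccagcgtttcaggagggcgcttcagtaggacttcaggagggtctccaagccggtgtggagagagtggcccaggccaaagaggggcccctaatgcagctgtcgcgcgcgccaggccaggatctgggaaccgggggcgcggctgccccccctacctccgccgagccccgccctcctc
Syn1, chrX:20921005-20921168, minus strand: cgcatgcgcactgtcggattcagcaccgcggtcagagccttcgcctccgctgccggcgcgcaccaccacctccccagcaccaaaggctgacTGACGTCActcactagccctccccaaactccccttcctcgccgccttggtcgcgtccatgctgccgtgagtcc
The windows were rich in G and C, with a median of 62.2% over the 34 windows (35.3% to 79.3%) beside 52.7% over all 32851 windows. The forkhead motif TGTTTAC on either strand was found in 0 of 27 genes, beside 4.05% of the 27025 genes with a window. TATTTAT, another forkhead motif, was found in 1 of 27 (Sv2b), beside 6.46% of all genes, and TGACGTCA in 1 of 27 (Syn1), beside 2.03%. These matches describe letters in a short window only.

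Library totals ranged from 10111149 to 23404528 counts. Foxp2 itself, as a check of the labels, stood at 5.38 to 8.74 CPM in L4 of the GFP mice and at 33.2 to 64.9 CPM in L4 of the FOXP2 mice. It was also higher in L2-3, whose cells the labels call GFP-negative, with 1.77 to 6.53 CPM in GFP mice and 20.2 to 52.3 CPM in FOXP2 mice. In L5-6 the groups overlapped, at 52.4 to 68.6 and 39.6 to 77.7 CPM. GFP mouse 1 stood apart. Its L5-6 library had a summed level of 11 oligodendrocyte lineage markers of 4658 CPM beside 1403 to 2501 CPM in the other L5-6 libraries, 7.499% of counts from mitochondrial genes beside 4.20% to 5.01%, and 10 pan-neuronal markers summing to 6886 CPM beside 10144 to 10965 CPM. Its L2-3 library had the lowest sum of 9 meningeal fibroblast markers in that layer, 396 CPM beside 916 to 2136 CPM. huFOXP2 mouse 1 also stood apart: its 3 libraries held 11.1 to 19.6 CPM of 9 photoreceptor markers, beside at most 2.70 CPM elsewhere, although 8 of these 9 genes did not pass the filter on low counts in the layer comparisons. The main counts below are also given without these 2 mice.

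Levels per length set the genes in order. On the RPKM scale (CPM per kilobase of exon), the mean over the 6 mice in L4 was highest for Vamp2, the main synaptobrevin of cortical terminals, with 295.4 ± 5.501 RPKM (SD, n = 6), and for Cplx2 with 278 ± 18.1 RPKM. These neighbours lay within the spread of Cplx2. Cplx1 (211 ± 13.4) and Rab3a (209 ± 8.62), a small GTPase of vesicles, followed and did not differ beyond their spread. Stx1a (183 ± 18.1), the syntaxin of the release machinery, Syn1 (175 ± 8.83), Snap47 (152 ± 8.46), Syt1 (138 ± 18.1) and Snap25 (97.4 ± 11.97) lay below them. At the low end of the same RPKM scale in L4 stood Syt2 (2.75 ± 0.761), Unc13b (2.05 ± 0.556), Vamp1 (1.64 ± 0.217), Syt10 (1.04 ± 0.376) and Syt12 (0.603 ± 0.0884). The remaining 25 genes ranged in L4 from 2.615 RPKM (Syt17) to 125 RPKM (Syp).

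**Figure D1:**
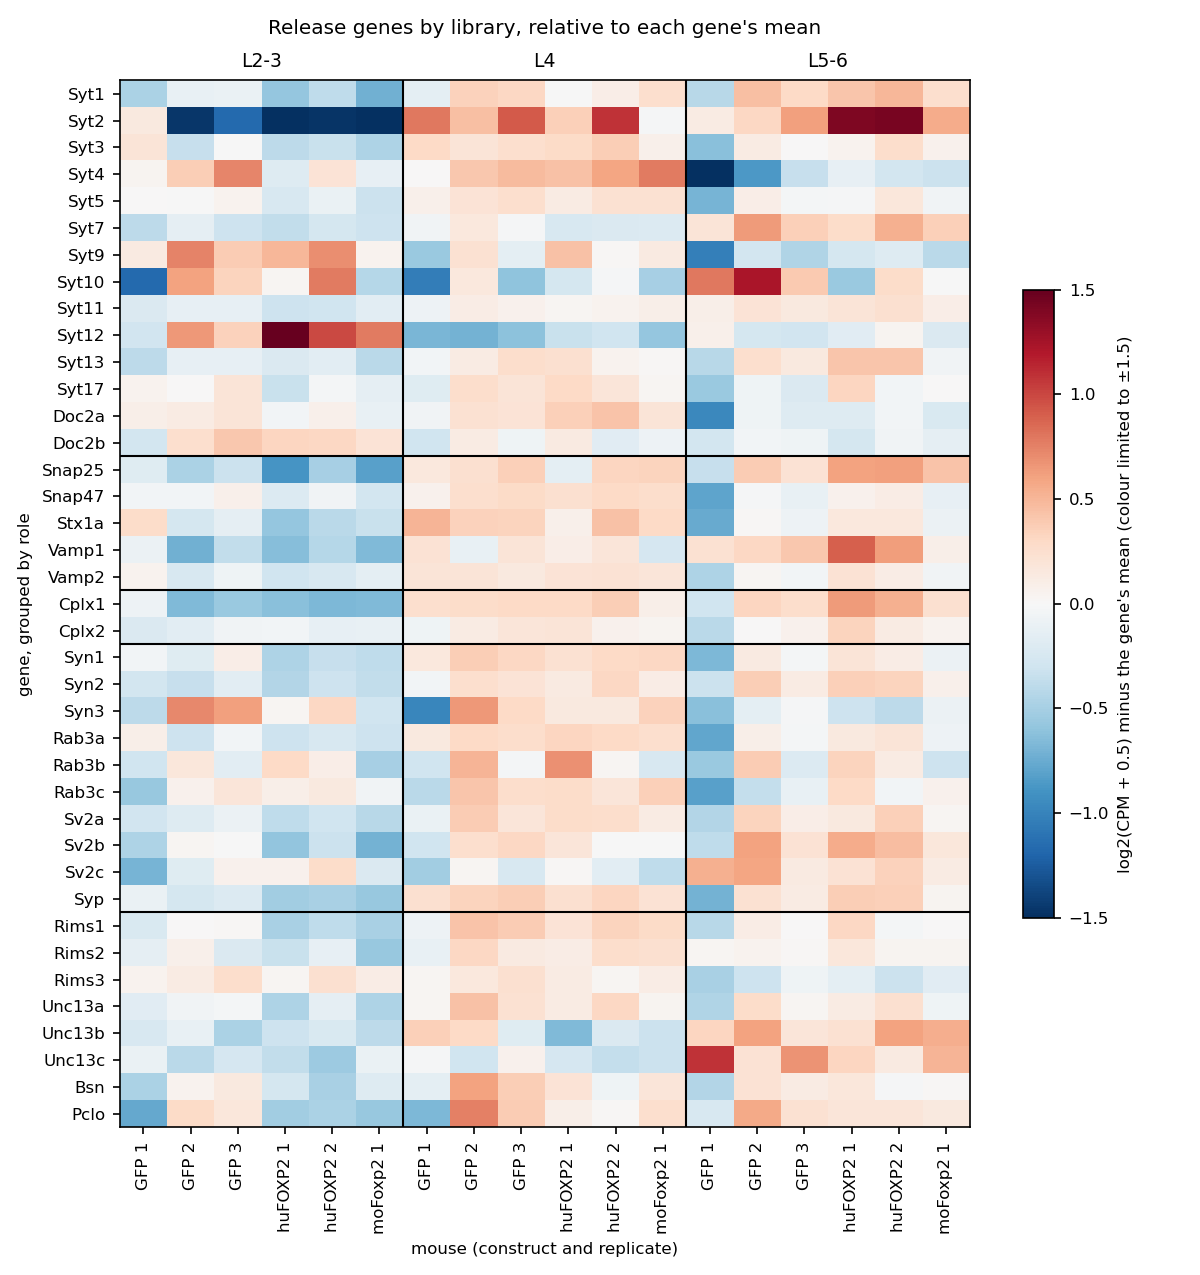
Each row is a gene and each column a library, in blocks of L2-3, L4 and L5-6, and the colour is log2(CPM + 0.5) minus the mean of that gene over the 18 libraries. Most rows are blue in L2-3 and red in L4, and the L5-6 library of GFP mouse 1 is blue in most rows. Syt12 and Syt9 run the other way from Syt2 between L2-3 and L4, for Syt9 not in the moFoxp2 mouse.

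Between L2-3 and L4 most of the release genes went up together. The summed level of all 39 genes was 8132 to 10059 CPM in the 6 L2-3 libraries and 10588 to 12615 CPM in the 6 L4 libraries, without overlap. In edgeR's quasi-likelihood test with the mouse as block and Benjamini-Hochberg adjustment over 15295 genes, 28 of the 39 passed the threshold of 0.05 for L4 against L2-3, 25 higher and 3 lower, while 36.5% of all genes tested were called (17.7% higher and 18.8% lower). The median log2 fold change over the 39 genes was 0.34, beside 0.04 over all genes. Without both mice that stood apart the count was 28 (24 higher, 4 lower), beside 38% of all genes. In each of the 6 fits without 1 mouse, 19 of the 28 genes called over all mice stayed called. Relative to 10 pan-neuronal markers, a scaling that shifted the median of all genes by -0.21, 20 were called (16 higher, 4 lower), when 671 of all genes were higher and 4141 lower. The calls lost were those of Syt5, Syt7, Syt11, Syt13, Snap47, Vamp2, Cplx2, Rims2 and Pclo. The 3 GFP mice alone gave 5 calls with a median of 0.25, when 6.06% of all genes were called. The 3 FOXP2 mice alone gave 28 with a median of 0.39, when 43% of all genes were called.

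L5-6 against L2-3 gave a similar number of calls, with fewer genes higher and more lower. Here 27 of the 39 genes passed, 20 higher and 7 lower in L5-6, beside 37.9% of all genes (20% higher and 17.9% lower), and the median log2 fold change was 0.26 beside 0.02 over all genes. Without both mice that stood apart, 31 were called (24 higher, 7 lower), beside 38.1% of all genes. Of the 27, 19 stayed called in every fit without 1 mouse. Without GFP mouse 1 alone, 34 were called (27 higher, 7 lower) beside 44.6% of all genes. Gained were Syt3, Syt5, Stx1a, Vamp2, Cplx2, Rab3a and Syn1. Relative to the pan-neuronal markers, 30 were called (25 higher, 5 lower), when 3441 of all genes were higher and 1449 lower. This scaling moved the median of all genes by 0.09. It added Syt3, Vamp2, Cplx2, Rab3a and Syn1 and lost Doc2b and Syn3. The GFP mice alone gave 14 calls (8 higher, 6 lower, median 0.04), when 22.7% of all genes were called. The FOXP2 mice alone gave 31 (27 higher, 4 lower, median 0.43), when 41.4% of all genes were called. L5-6 against L4 gave 13 calls, 6 higher and 7 lower, beside 35.1% of all genes (19.4% higher and 15.6% lower), so that the share of release genes called was near that of all genes. That split depended on scaling: relative to the pan-neuronal markers, which moved the median of all genes by 0.30, 20 were called, 18 higher and 2 lower, when 8166 of all genes were higher and 526 lower. Without both mice 18 were called (7 higher, 11 lower), beside 31.1% of all genes.

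Other tissue differed between the dissected layers as well. The 9 meningeal fibroblast markers summed to 396 to 2136 CPM in L2-3 and to 23.5 to 91.9 CPM in L4, and all 9 were lower in both L4 and L5-6 than in L2-3. The 11 oligodendrocyte lineage markers summed to 643 to 1039 CPM in L2-3, 534 to 791 CPM in L4 and 1403 to 4658 CPM in L5-6. The 10 pan-neuronal markers summed to 9616 to 11606 CPM in L2-3, 10979 to 13518 CPM in L4 and 6886 to 10965 CPM in L5-6. Of these neuronal markers, 3 were called higher and 0 lower in L4 than in L2-3, near the 36.5% of all genes called. In L5-6 against L4, 0 were higher and 5 lower, beside 35.1% of all genes called. All 10 markers of layer 6 and subplate neurons were higher in L5-6 than in either other layer. Without both mice that stood apart, 6 neuronal markers were higher in L4 than in L2-3 and 6 lower in L5-6 than in L4, and the calls of the meningeal list against L2-3 and of the layer 6 list in L5-6 again took in every gene. Of all genes, 38% were then called for L4 against L2-3, 38.1% for L5-6 against L2-3 and 31.1% for L5-6 against L4. Apart from the scaling to pan-neuronal markers, the part of these tissue differences in the layer results was not tested.

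**Figure D2:**
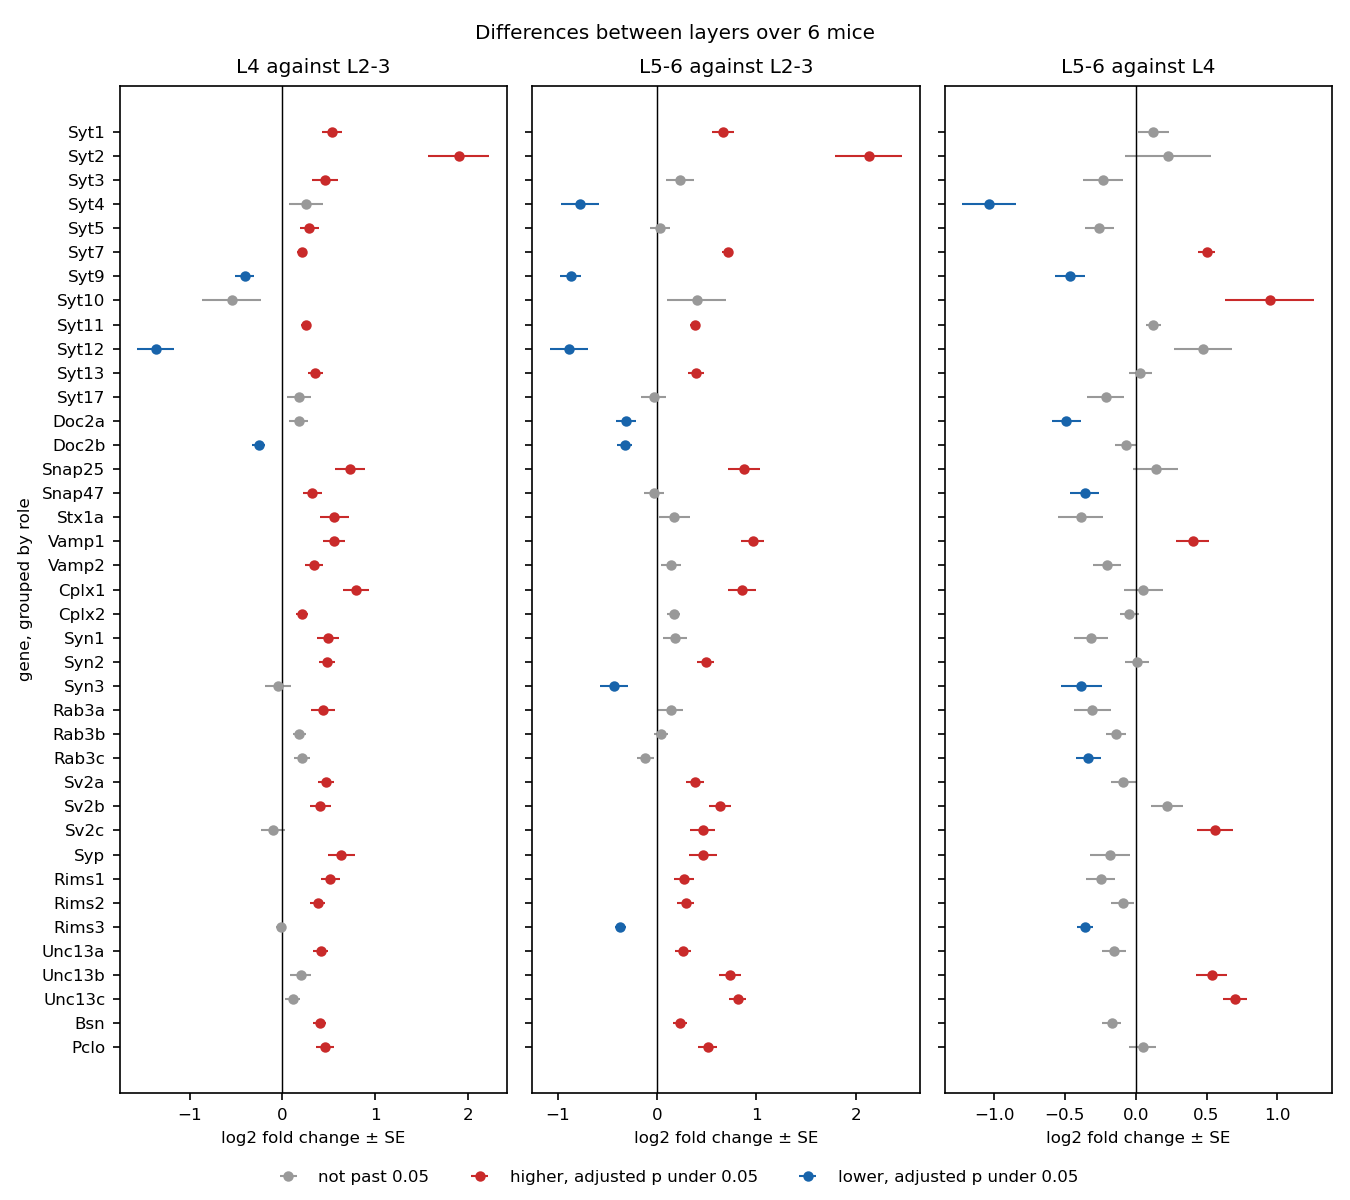
Points are log2 fold changes of the 39 genes between layers over 6 mice and bars their SE, for L4 against L2-3, L5-6 against L2-3 and L5-6 against L4, with genes past an adjusted p of 0.05 in red (higher) or blue (lower). L4 against L2-3 has 25 red and 3 blue points, L5-6 against L2-3 has 20 and 7, and L5-6 against L4 has 6 and 7.

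In the calcium sensor families the direction varied from gene to gene. Of the 14 genes, 7 were higher and 3 lower in L4 than in L2-3 (71.4% called), 5 higher and 5 lower in L5-6 than in L2-3 (71.4%), and 2 higher and 3 lower in L5-6 than in L4 (35.7%, near the 35.1% of all genes). These were 6 and 4, 6 and 5, and 3 and 3 without both mice that stood apart, when 38%, 38.1% and 31.1% of all genes were called. Relative to pan-neuronal markers, 3 were higher and 3 lower in L4 than in L2-3, and 6 and 2 in L5-6 against L4. Under that scaling 31.5% and 56.8% of all genes were called. Syt1 encodes the main fast calcium sensor of forebrain terminals. Its lowest, median and highest levels were 628, 769 and 958 CPM in L2-3, 931, 1168 and 1308 CPM in L4, and 772, 1323 and 1455 CPM in L5-6. Both deeper samples were thus above L2-3 in all 6 mice, and the only L4 and L5-6 values within the L2-3 range were those of GFP mouse 1. Syt1 rose by 0.54 ± 0.11 in L4 (log2 fold change ± SE, edgeR adjusted p = 0.00198) and by 0.66 ± 0.11 in L5-6 (adjusted p = 0.000275), and the L5-6 to L4 difference of 0.13 ± 0.11 did not pass (adjusted p = 0.388).

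Syt2 had the largest rise of the 39 genes. It encodes a fast calcium sensor best known from the hindbrain and from inhibitory terminals, and lies on mm10 chromosome 1 from 134646677 to 134762593. Its L2-3 levels were 14.7, 4.50 and 5.60 CPM in GFP mice 1 to 3, 3.63 and 4.45 CPM in huFOXP2 mice 1 and 2, and 2.26 CPM in the moFoxp2 mouse. In L4 the same mice gave 23.3, 18.3, 25.4, 17.1, 28.6 and 13.0 CPM, and in L5-6 they gave 14.49, 16.6, 20.5, 35.7, 36.4 and 19.7 CPM. Every mouse was higher in L4 than in L2-3, and 5 of 6 were higher in L5-6, the exception being GFP mouse 1 with nearly the same level in both. The log2 fold changes were 1.90 ± 0.33 for L4 (adjusted p = 0.00072) and 2.13 ± 0.34 for L5-6 (adjusted p = 0.000175), and L5-6 and L4 did not differ beyond their error (0.23 ± 0.30, adjusted p = 0.583). Both calls stayed in every fit without 1 mouse.

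Syt7, a slow sensor with high calcium affinity linked to asynchronous release and vesicle replenishment, stepped up at L5-6. It spanned 138 to 167 CPM in L2-3, 155 to 203 CPM in L4 and 208 to 284 CPM in L5-6, so that the L5-6 libraries lay above all others. Its log2 difference was 0.71 ± 0.06 from L2-3 (adjusted p = 4.07e-07) and 0.50 ± 0.06 from L4 (adjusted p = 3.37e-05), and its smaller rise of 0.21 ± 0.06 in L4 fell to -0.01 relative to pan-neuronal markers. Syt11 and Syt13 rose in both L4 (0.26 ± 0.05 and 0.35 ± 0.08) and L5-6 (0.38 ± 0.05 and 0.39 ± 0.08) against L2-3, but relative to pan-neuronal markers the L4 differences were 0.05 (adjusted p = 0.657) and 0.14 (adjusted p = 0.077). Syt3 (0.46 ± 0.14) and Syt5 (0.29 ± 0.10) passed for L4 against L2-3, with calls kept in 2 and 1 of the 6 fits without 1 mouse, and neither passed for L5-6 against L2-3 or against L4. Without GFP mouse 1 both passed for L5-6 against L2-3, and Syt3 also did so relative to pan-neuronal markers. Syt10, known as a sensor for the release of growth factor from neurons, was low at 0.856 to 6.59 CPM over the 18 libraries. It rose by 0.94 ± 0.32 in L5-6 against L4 (adjusted p = 0.0324), a call that did not hold in 3 fits, those leaving out the moFoxp2 mouse (0.99, adjusted p = 0.0609), GFP mouse 2 (0.88, 0.109) and GFP mouse 3 (0.88, 0.0985).

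Syt12 and Syt9 had their highest means in L2-3. Syt12, a synaptotagmin that does not bind calcium, had 4.05, 8.22 and 6.55 CPM in L2-3 of GFP mice 1 to 3, 15.5 and 10.5 CPM in huFOXP2 mice 1 and 2, and 9.03 CPM in the moFoxp2 mouse. In L4 it spanned 2.89 to 4.01 CPM and in L5-6 4.03 to 5.34 CPM. The L4 libraries lay below all L2-3 libraries, by a narrow margin for GFP mouse 1, which was also the one mouse with more Syt12 in L5-6 (5.34 CPM) than in L2-3. It fell by 1.36 ± 0.20 on the log2 scale in L4 (adjusted p = 0.000188) and by 0.89 ± 0.19 in L5-6 (adjusted p = 0.00197). Syt9, a fast sensor like Syt1, spanned 16.2 to 26.5 CPM in L2-3, 10.4 to 21.4 CPM in L4 and 7.39 to 13.6 CPM in L5-6, and the L5-6 libraries did not overlap with L2-3. From L2-3 to L4 it fell in every mouse but the moFoxp2 mouse (log2 change 0.08), with huFOXP2 mouse 1 at -0.06. That lower L4 call was lost in the FOXP2 mice alone and without the mouse as block. Syt9 was lower in L5-6 than in L2-3 in 6 of 6 mice (-0.87 ± 0.10, adjusted p = 1.68e-05) and lower in L5-6 than in L4 in 6 of 6 (-0.47 ± 0.11, adjusted p = 0.0047), the latter not passing relative to pan-neuronal markers (-0.17, adjusted p = 0.16).

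Syt4, a synaptotagmin found on dense-core vesicles in axons and dendrites, had its lowest mean in L5-6. Its L2-3 levels were 337, 423 and 545 CPM in GFP mice 1 to 3, 287 and 379 CPM in the huFOXP2 mice, and 300.3 CPM in the moFoxp2 mouse. The L4 levels in the same order were 328, 434, 457, 446, 496 and 563 CPM, and the L5-6 levels 93.3, 180.5, 258, 300.2, 270.1 and 263 CPM. All L5-6 libraries were below all L4 libraries, and the 3 lowest were those of the GFP mice. In huFOXP2 mouse 1 the L2-3 level lay below that of L5-6. The log2 fold change was -1.03 ± 0.19 against L4 (adjusted p = 0.00124) and -0.78 ± 0.19 against L2-3 (adjusted p = 0.00504). The FOXP2 mice alone gave -0.21 against L2-3 (adjusted p = 0.14). The Doc2 sensors, linked to spontaneous and asynchronous release, also had lower calls in L5-6: Doc2b, with 54.2 to 87.1 CPM in L2-3 and 54.4 to 64.2 CPM in L5-6, fell by 0.33 ± 0.07 (adjusted p = 0.0028), and Doc2a, with 37.9 to 46.8 and 20.6 to 39.8 CPM, fell by 0.32 ± 0.10 (adjusted p = 0.0245). The Doc2b difference from L2-3 was -0.24 relative to pan-neuronal markers (adjusted p = 0.16), and the Doc2a call was lost without GFP mouse 3 (-0.30, adjusted p = 0.074). Syt17 passed in none of the 3 layer comparisons.

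The SNARE genes and complexins all rose in L4. Of 5 SNARE genes, 5 were higher in L4 than in L2-3, beside 36.5% of all genes called. In L5-6, 2 were higher than in L2-3 (37.9% of all genes called), and 1 was higher and 1 lower than in L4 (35.1%). Both of these L5-6 shares lay near those of all genes. Without both mice that stood apart, 5 were higher in L4, 4 higher in L5-6, and 1 higher and 2 lower in L5-6 than in L4. In those fits 38%, 38.1% and 31.1% of all genes were called. Relative to pan-neuronal markers the L4 calls of Vamp2 (0.14, adjusted p = 0.0658), Snap47 (0.12, adjusted p = 0.0728) and Cplx2 were lost. Snap25, the plasma membrane SNARE of neurons, had 307, 405 and 502 CPM as its lowest, median and highest levels in L2-3, 511, 691 and 725 CPM in L4, and 445, 749 and 869 CPM in L5-6. No L4 library overlapped with L2-3, and in L5-6 only GFP mouse 1 did. Its log2 fold changes against L2-3 were 0.73 ± 0.16 in L4 (adjusted p = 0.00298) and 0.87 ± 0.16 in L5-6 (adjusted p = 0.000633). Stx1a spanned 259 to 468 CPM in L2-3, 408 to 549 CPM in L4 and 229 to 432 CPM in L5-6. It rose in L4 by 0.56 ± 0.16 (edgeR adjusted p = 0.0133), which did not pass without huFOXP2 mouse 2 (0.51, adjusted p = 0.056) or the moFoxp2 mouse (0.54, adjusted p = 0.054). In L5-6 it differed from L2-3 by 0.17 ± 0.16 (adjusted p = 0.425), and an L5-6 rise was called without GFP mouse 1.

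Vamp1 and Vamp2 encode the synaptobrevins of synaptic vesicles. Vamp1 (mm10 chromosome 6, 125215551 to 125245964) had 15.01, 9.46 and 12.2 CPM in L2-3 of GFP mice 1 to 3, 10.1 and 11.7 CPM in the huFOXP2 mice and 9.90 CPM in the moFoxp2 mouse. In L4 the order was 18.6, 14.7, 18.3, 17.1, 18.2 and 13.3 CPM, and in L5-6 it was 18.8, 19.9, 21.3, 30.0, 24.9 and 16.9 CPM. Every mouse was higher at each step, and L5-6 did not overlap with L2-3. Its log2 fold change was 0.96 ± 0.12 for L5-6 (adjusted p = 1.94e-05) and 0.56 ± 0.12 for L4 (adjusted p = 0.00263) against L2-3. The further rise from L4 to L5-6 (0.40 ± 0.12, adjusted p = 0.0163) did not pass without GFP mouse 2 or without huFOXP2 mouse 2 (0.39 and adjusted p = 0.054 in both). Vamp2 (802 to 1027, 1088 to 1146 and 714 to 1150 CPM in L2-3, L4 and L5-6) rose in L4 by 0.34 ± 0.10 (edgeR adjusted p = 0.015). That call was lost without GFP mouse 2 (adjusted p = 0.057), huFOXP2 mouse 2 (0.058) or the moFoxp2 mouse (0.051). Its L5-6 rise over L2-3 was called only without GFP mouse 1, in some other fits without that mouse, and relative to pan-neuronal markers. Snap47, a widely expressed SNAP-25 relative, was higher in L4 than in L2-3 (0.32 ± 0.10), a call lost without GFP mouse 2 (adjusted p = 0.06) or huFOXP2 mouse 1 (0.062) or either of the other FOXP2 mice, and lower in L5-6 than in L4 (-0.36 ± 0.10, adjusted p = 0.0146). That last difference was -0.07 relative to pan-neuronal markers (adjusted p = 0.206).

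Cplx1 (mm10 chromosome 5, 108518554 to 108550024) was low in L2-3 in every mouse but GFP mouse 1. The L2-3 levels were 364 CPM in that mouse and 239.9 to 260 CPM in the other 5. L4 libraries spanned 407 to 494 CPM, without overlap, and L5-6 libraries 312 to 598 CPM, with GFP mouse 1 again at the edge with the lowest value. The log2 rise was 0.80 ± 0.14 in L4 (adjusted p = 0.000689) and 0.85 ± 0.14 in L5-6 (adjusted p = 0.000245), and both calls stayed in every fit without 1 mouse. Cplx2, its more abundant paralogue, spanned 1109 to 1254 CPM in L2-3, 1229 to 1467 CPM in L4 and 972 to 1625 CPM in L5-6. Its rise of 0.21 ± 0.07 in L4 (adjusted p = 0.0244) was -0.002 relative to pan-neuronal markers, and it was kept in only 1 of the 6 fits without 1 mouse, that without GFP mouse 1. The adjusted p was 0.0888 for GFP mouse 2 left out, 0.0688 for GFP mouse 3, 0.0514 for huFOXP2 mouse 1, and 0.064 for either of the other FOXP2 mice.

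**Figure D3:**
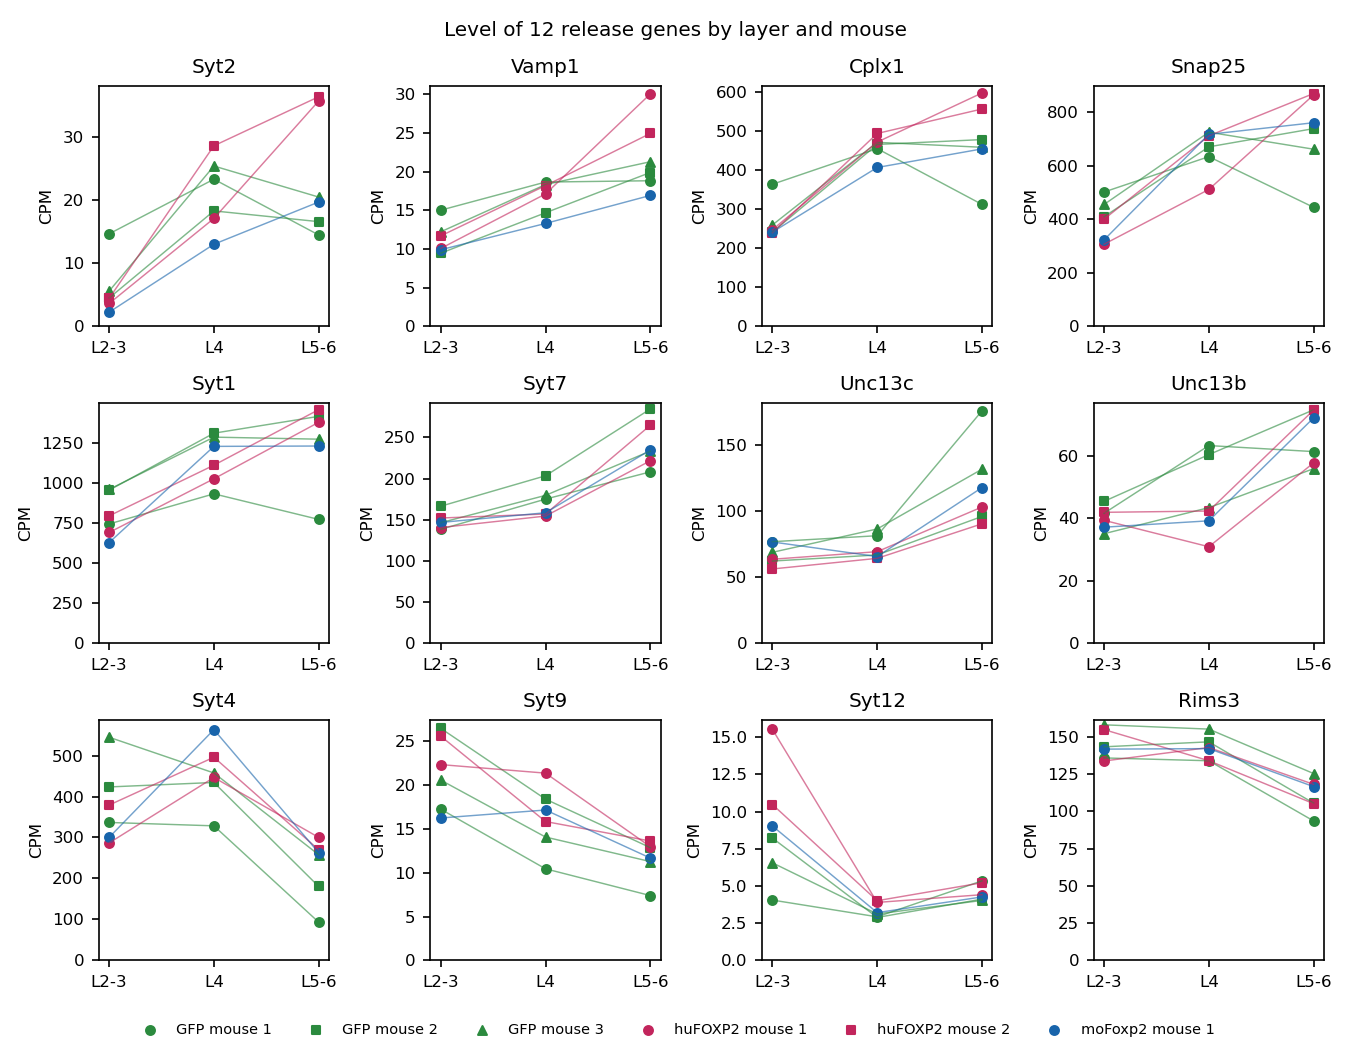
Each panel gives the level of 1 gene in CPM (linear axis from 0) in L2-3, L4 and L5-6, with 1 symbol per mouse and a line joining the libraries of that mouse, green for GFP, red for huFOXP2 and blue for moFoxp2. Syt2, Vamp1, Cplx1 and Snap25 lie lowest in L2-3 in most mice, Unc13c and Syt7 step up at L5-6, Syt4, Syt9 and Rims3 lie lowest in L5-6 and Syt12 highest in L2-3 in most mice, with huFOXP2 mouse 1 an exception for Syt4 and GFP mouse 1 for Syt12.

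Of the 10 genes of vesicle proteins, 6 were higher and 0 lower in L4 than in L2-3, 5 higher and 1 lower in L5-6 than in L2-3, and 1 higher and 2 lower in L5-6 than in L4. Of all genes, 36.5%, 37.9% and 35.1% were called in these comparisons, so the last count was near the share of all genes. Leaving out both mice that stood apart gave 6 and 0, 6 and 1, and 1 and 4, when 38%, 38.1% and 31.1% of all genes were called. Syp, the abundant vesicle membrane protein synaptophysin, spanned 358 to 498 CPM in L2-3 and 619 to 690 CPM in L4, without overlap, and 326 to 689 CPM in L5-6, where the lowest value was that of GFP mouse 1. It rose in L4 by 0.64 ± 0.14 (adjusted p = 0.00327). Syn1, a synapsin, had its lowest, median and highest levels at 344, 397 and 511 CPM in L2-3, 532, 587 and 615 CPM in L4 and 298, 489 and 542 CPM in L5-6. All L4 libraries lay above all L2-3 libraries (0.49 ± 0.12, edgeR adjusted p = 0.00678), whereas L5-6 differed by 0.18 ± 0.12 (adjusted p = 0.278). An L5-6 rise of Syn1 over L2-3 was called without GFP mouse 1 and relative to pan-neuronal markers.

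Syn2 rose in both (0.48 ± 0.09 in L4, adjusted p = 0.000885, and 0.49 ± 0.09 in L5-6, adjusted p = 0.000441), from 162 to 196 CPM in L2-3 to 213 to 271 CPM in L4 and 176 to 283 CPM in L5-6. Syn3, the scarcest synapsin, was lower in L5-6 than in L2-3 (-0.43 ± 0.14, adjusted p = 0.0247). The call did not hold when GFP mouse 2 (-0.35, adjusted p = 0.111), GFP mouse 3 (-0.39, 0.0923) or huFOXP2 mouse 2 (-0.38, 0.101) was left out. In the SV2 family of vesicle glycoproteins, Sv2a rose by 0.47 ± 0.09 in L4 and 0.38 ± 0.09 in L5-6, and Sv2b by 0.41 ± 0.11 and 0.63 ± 0.11, the L4 call of Sv2b being lost without the moFoxp2 mouse (0.35, adjusted p = 0.06). Sv2c rose only at L5-6, by 0.46 ± 0.13 against L2-3 and 0.56 ± 0.13 against L4 (adjusted p = 0.00497), where its levels of 37.1 to 51.3 CPM lay above all 6 L4 libraries at 23.4 to 34.5 CPM, and its call against L2-3 was lost without GFP mouse 2 (0.39, adjusted p = 0.059). Among the Rab3 genes, Rab3a rose in L4 by 0.44 ± 0.13 (adjusted p = 0.0165; levels of 312 to 412 CPM in L2-3 and 429 to 482 CPM in L4), Rab3b was called nowhere, and Rab3c was lower in L5-6 than in L4 (-0.33 ± 0.09, adjusted p = 0.00928), which was -0.04 relative to pan-neuronal markers. The Rab3a call was lost without GFP mouse 2 (0.41, adjusted p = 0.06), huFOXP2 mouse 1 (0.40, 0.056), huFOXP2 mouse 2 (0.42, 0.054) or the moFoxp2 mouse (0.41, 0.069).

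All 8 active zone and priming genes were called between L5-6 and L2-3, 7 higher and 1 lower, beside 37.9% of all genes called. In L4, 5 were higher than in L2-3, beside 36.5% of all genes called. Leaving out both mice that stood apart gave 6 higher and 1 lower in L5-6 (38.1% of all genes called), and 5 higher in L4 (38%). Unc13a, the main priming factor of glutamatergic terminals, had levels of 273, 338 and 368 CPM (lowest, median, highest) in L2-3, 383, 425 and 509 CPM in L4, and 276, 396 and 456 CPM in L5-6. The L4 libraries lay above L2-3 without overlap (0.41 ± 0.08, adjusted p = 0.00204). The L5-6 rise of 0.26 ± 0.08 (adjusted p = 0.0254) was not called without GFP mouse 2 (0.24, adjusted p = 0.088), huFOXP2 mouse 1 (0.19, 0.12), huFOXP2 mouse 2 (0.23, 0.1) or the moFoxp2 mouse (0.22, 0.1). Unc13b and Unc13c, its scarcer paralogues, rose at L5-6. Unc13c had 76.9, 62.3 and 68.9 CPM in L2-3 of GFP mice 1 to 3, 63.6 and 56.3 CPM in the huFOXP2 mice and 76.7 CPM in the moFoxp2 mouse, and its L5-6 levels were 176, 96.0, 132, 103, 90.4 and 118 CPM in the same order. No L5-6 library overlapped with L2-3 or with L4 (64.3 to 86.5 CPM), with log2 differences of 0.81 ± 0.08 (adjusted p = 3.69e-06) and 0.70 ± 0.08 (adjusted p = 4.26e-05). Unc13b rose from 35.1 to 45.5 CPM in L2-3 to 55.9 to 74.8 CPM in L5-6, also without overlap (0.73 ± 0.11, adjusted p = 0.000124).

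The RIM scaffolds did not move alike. Rims1 spanned 120 to 171 CPM in L2-3, 160 to 226 CPM in L4 and 126 to 209 CPM in L5-6 and rose in L4 by 0.52 ± 0.10 (adjusted p = 0.00159). Its L5-6 rise of 0.27 ± 0.10 (adjusted p = 0.0496) was -0.03 in the GFP mice alone, and it was called in 2 of the 6 fits without 1 mouse, those without GFP mouse 1 or 3. It was 0.15 (adjusted p = 0.213) when huFOXP2 mouse 1 was left out, 0.30 (0.0774) for GFP mouse 2, 0.25 (0.135) for huFOXP2 mouse 2 and 0.21 (0.171) for the moFoxp2 mouse. Rims2, at 64.4 to 100.1 CPM in L2-3 and 88.3 to 118 CPM in L4, rose in L4 by 0.38 ± 0.08 (adjusted p = 0.00333), which was 0.17 (adjusted p = 0.183) relative to pan-neuronal markers. Rims3, a short RIM protein, fell at L5-6 from 134 to 158 CPM in L2-3 and 134 to 155 CPM in L4 to 93.5 to 125 CPM. Its L5-6 libraries overlapped with neither layer (-0.37 ± 0.06 against L2-3, adjusted p = 0.00011, and -0.36 ± 0.06 against L4, adjusted p = 0.00037), although the difference from L4 was -0.06 relative to pan-neuronal markers. Bassoon (Bsn) and piccolo (Pclo) rose in both L4 (0.40 ± 0.07 and 0.46 ± 0.10) and L5-6 (0.23 ± 0.07 and 0.51 ± 0.10). The L5-6 call of Bsn was lost without huFOXP2 mouse 1 (0.18, adjusted p = 0.078), huFOXP2 mouse 2 (0.18, 0.085) or the moFoxp2 mouse (0.22, 0.052). That of Pclo was lost without the mouse as block (0.47, adjusted p = 0.0969), as was its L4 call (0.46, adjusted p = 0.108), and relative to pan-neuronal markers its L4 difference was 0.25 (adjusted p = 0.0908).

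Ratios of paralogues within a library do not depend on library scaling. For 9 pairs, the log2 ratio per exonic length was compared between layers in 27 exact two-sided paired sign-flip permutation tests over the 6 mice, where the smallest p possible is 0.03125. None passed after adjustment, the smallest adjusted p being 0.084, so the ratios are given as values with the number of mice that moved each way. The log2 ratio of Vamp1 to Vamp2 was -7.71 ± 0.16 in L2-3, -7.50 ± 0.20 in L4 and -6.90 ± 0.22 in L5-6 (mean ± SD, n = 6), and it was higher in L5-6 than in L2-3 in 6 of 6 mice, by 0.82 ± 0.13 (exact permutation p = 0.03125). The Cplx1 to Cplx2 ratio was -1.01 ± 0.28 in L2-3 and -0.40 ± 0.11 in L4, a difference of 0.61 ± 0.23 that was positive in 6 of 6 mice, and it was -0.32 ± 0.11 in L5-6. GFP mouse 1 stood apart in L2-3 with -0.44 where the others were at -1.17 to -1.08.

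The Syt2 to Syt1 ratio rose in 6 of 6 mice from L2-3 to L4 (1.51 ± 0.62) and in 5 of 6 to L5-6 (1.55 ± 0.89), again with GFP mouse 1 highest in L2-3 (-5.53 beside -7.97 to -7.28). Unc13b gained on Unc13a from L4 to L5-6 in 6 of 6 mice (0.71 ± 0.25), and Sv2b on Sv2a from L2-3 to L5-6 in 6 of 6 (0.25 ± 0.23). Doc2b gained on Doc2a from L4 to L5-6 in 6 of 6 (0.43 ± 0.31). Syn1 lost ground to Syn2 in L5-6 against both L2-3 (-0.31 ± 0.18) and L4 (-0.33 ± 0.12), in 6 of 6 mice each. Rab3c to Rab3a and Rims2 to Rims1 moved the same way in all 6 mice in none of the 3 layer pairs.

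**Figure D4:**
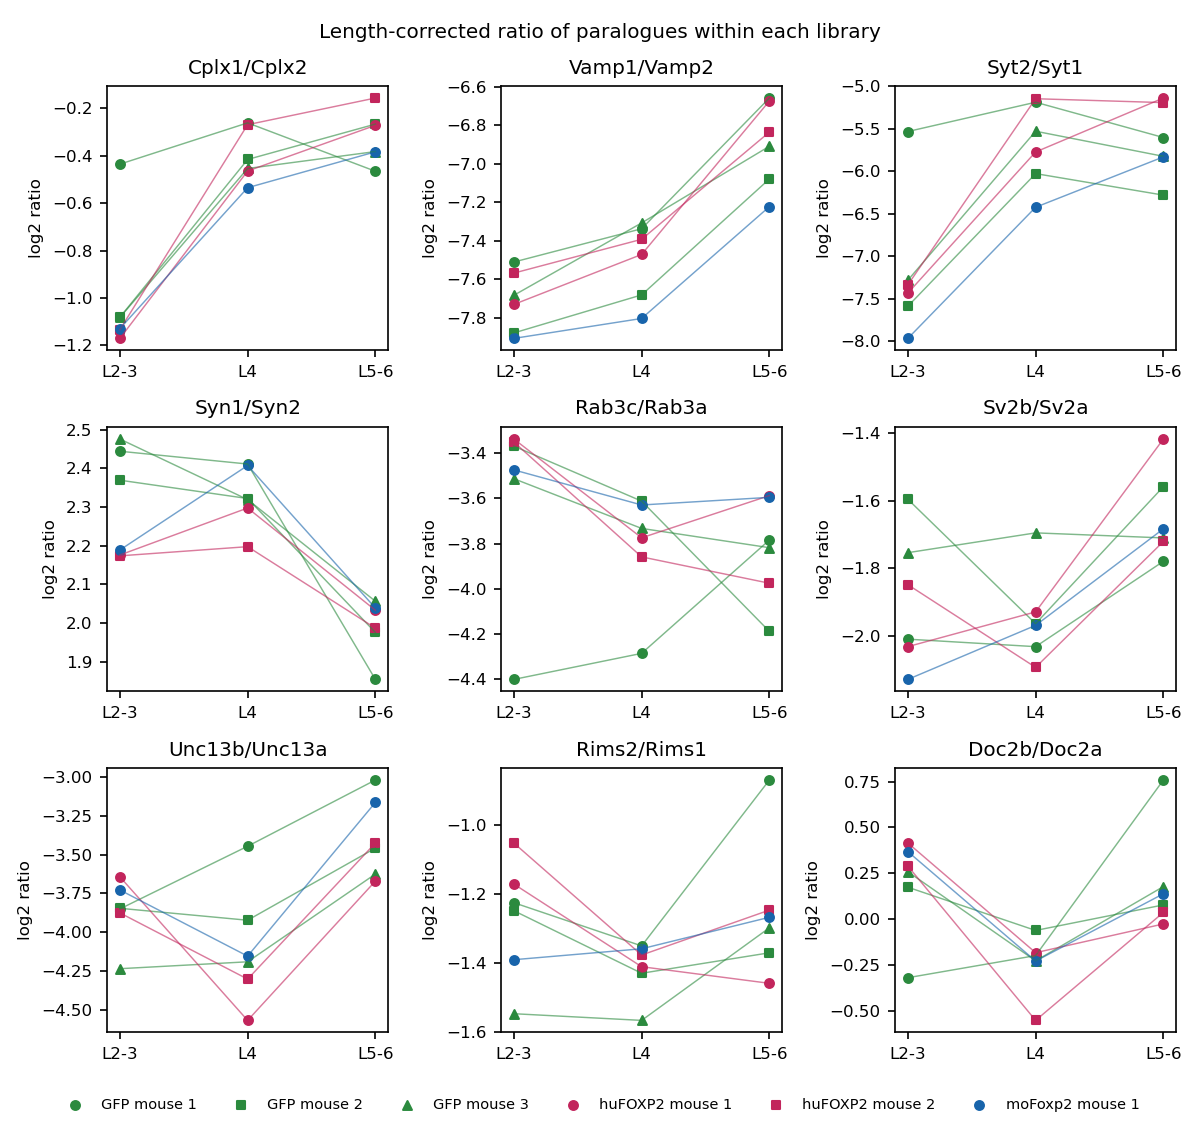
Each panel gives the log2 ratio of 2 paralogues after correction for exonic length (0 means equal levels per length; axes differ between panels), by layer, with 1 symbol per mouse and lines joining the libraries of a mouse. Vamp1/Vamp2 and Syt2/Syt1 lie below -5 in every library, Cplx1/Cplx2 lies just below 0 in L4 and L5-6, and GFP mouse 1 is the high point of Cplx1/Cplx2 and Syt2/Syt1 in L2-3.

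FOXP2 and GFP mice were then compared within each layer, the question that the electroporation poses. No release gene passed in any layer: 0 of 39 in L2-3 (0.0722% of all genes called), 0 in L4 (0.0275%), 0 in L5-6 (0.0196%) and 0 over the summed layers of each mouse (0.0172%). At an unadjusted p under 0.05, edgeR marked 13 of the 39 in L2-3 (2412 of 15241 genes), 2 in L4 (457 of 14544), 4 in L5-6 (946 of 15330) and 1 over summed layers (715 of 17462). DESeq2 called 3 in L2-3, when it called 4.95% of all genes (755 of 15241), and 0 in the other 3 comparisons (0.22% to 0.365% of all genes). In fits without both mice that stood apart, edgeR called 0 in all 4 (0.0343% to 0.0618% of all genes). The median log2 fold change of the 39 genes was -0.22 in L2-3, 0.02 in L4, 0.20 in L5-6 and 0.00 over summed layers, beside medians of all genes within 0.01 of 0. The L5-6 median was 0.05 without GFP mouse 1, and without both mice that stood apart the medians were -0.19 in L2-3, -0.07 in L4 and 0.00 in L5-6.

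In L2-3 the genes of smallest p were Rims1, Syp and Syn1, all lower in the FOXP2 mice. Rims1 was at 144, 169 and 171 CPM in GFP mice 1 to 3, at 120 and 129 CPM in huFOXP2 mice 1 and 2 and at 120 CPM in the moFoxp2 mouse, without overlap (-0.40 ± 0.10, edgeR adjusted p = 0.112). Syp was at 498, 442 and 464 CPM in the GFP mice and at 370, 381 and 358 CPM in the FOXP2 mice (-0.35 ± 0.09, adjusted p = 0.126). Syn1 was at 462, 420 and 511 CPM against 344, 374 and 364 CPM (-0.37 ± 0.10, adjusted p = 0.136). DESeq2 called these same 3 genes, with adjusted p of 0.0204 for Rims1, 0.0123 for Syp and 0.0294 for Syn1. That fit called 4.95% of all genes, so 3 of 39 lay near its share. The groups did not overlap for any of these 3 genes. They were picked by the same difference, so the lack of overlap gives no separate support. The share of all genes without overlap was not computed. Without GFP mouse 1, edgeR called 2 of the release genes, Rims1 and Pclo, beside 1.26% of all genes. Pclo stood at 113, 233 and 215 CPM in GFP mice 1 to 3, at 133 and 137 CPM in the huFOXP2 mice and at 129 CPM in the moFoxp2 mouse, so that its groups overlapped through GFP mouse 1.

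Other cell types differed between the same libraries. In L2-3, meningeal fibroblast markers summed to 396 to 1236 CPM in GFP mice and to 1423 to 2136 CPM in FOXP2 mice, 9 endothelial and pericyte markers to 671 to 808 and 958 to 1376 CPM, and pan-neuronal markers to 10365 to 11606 and 9616 to 10513 CPM. Markers of layer 2-3 neurons summed to 1957 to 2086 CPM in GFP mice and 1490 to 1632 CPM in FOXP2 mice. Those of layer 4 neurons summed to 243 to 393 and 162 to 196 CPM. Interneuron markers went the other way, at 290 to 347 and 378 to 467 CPM. Markers of layer 5 and of layer 6 and subplate neurons overlapped between the groups. Relative to the pan-neuronal markers, the median fold change of the release genes in L2-3 was -0.06 while that of all genes was 0.16. The part of other tissue and of the neuron types in the differences of the release genes was not tested beyond that scaling.

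In L4, whose cells the labels describe as GFP-positive, Unc13b had the smallest p. It was at 63.3, 60.4 and 43.5 CPM in GFP mice 1 to 3, at 30.9 and 42.4 CPM in the huFOXP2 mice and at 39.2 CPM in the moFoxp2 mouse. The groups touched closely without overlap (-0.57 ± 0.17, adjusted p = 1.0). Next came Syt7, with 175, 203 and 180 CPM in GFP mice and 155, 157 and 159 CPM in FOXP2 mice (-0.25 ± 0.09), and Syt4, with 328, 434 and 457 CPM against 446, 496 and 563 CPM and overlap between the groups (0.30 ± 0.14). In L5-6 the smallest p was that of Syt2, with 14.49, 16.6 and 20.5 CPM in GFP mice and 35.7, 36.4 and 19.7 CPM in FOXP2 mice, the moFoxp2 mouse lying within the GFP range (0.82 ± 0.24, adjusted p = 0.713). It was followed by Syt10 (4.76, 6.59 and 3.47 CPM against 1.56, 3.18 and 2.52 CPM; -1.03 ± 0.34) and Rab3c (88.7, 122 and 145 CPM against 193, 153 and 164 CPM; 0.51 ± 0.18), both without overlap between groups. The genes named for L4 and L5-6 were picked by the same differences, so a lack of overlap gives no separate support. The share of all genes without overlap was not computed here either. Over summed layers the smallest p values were those of Syt12 (0.61 ± 0.22), Unc13c (-0.27 ± 0.14) and Rab3c (0.25 ± 0.17), all with an adjusted p of 1.0.

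**Figure D5:**
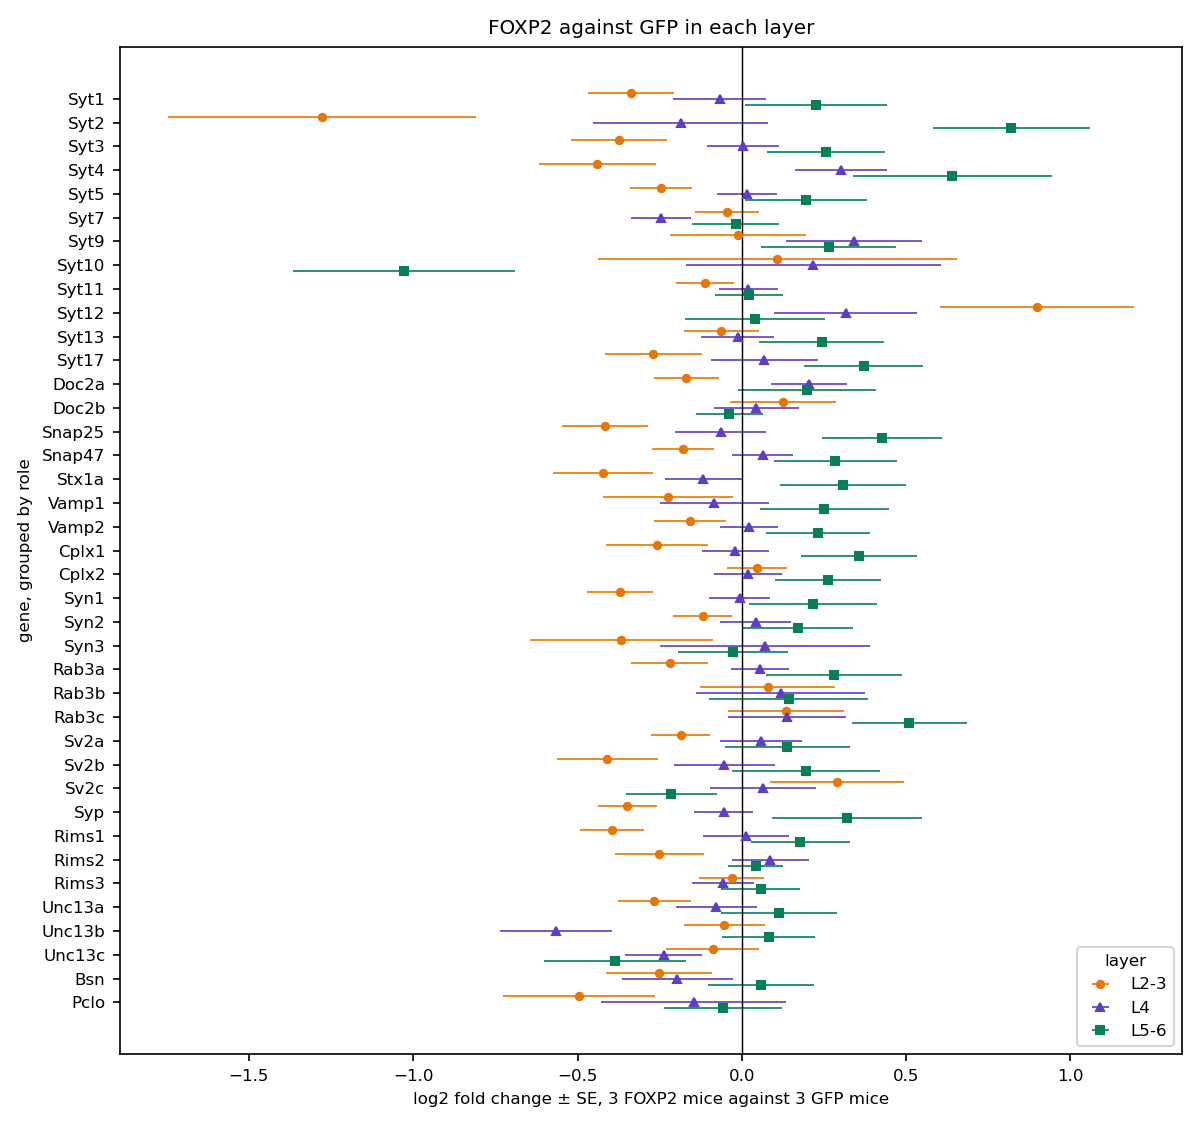
Points are log2 fold changes of the 39 genes in 3 FOXP2 mice against 3 GFP mice and bars their SE, in L2-3 (circles), L4 (triangles) and L5-6 (squares). Most L2-3 points lie left of 0 and most L5-6 points right of 0, and no single point passes the threshold.

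Whether the FOXP2 effect itself differed from layer to layer was tested with the mouse as block. Between L5-6 and L2-3, 12 of the 39 genes passed, all 12 with a more positive effect in L5-6, beside 15.4% of all genes (6.75% more positive and 8.66% more negative). The median over the 39 genes was 0.39 beside 0.00 over all genes. The 12 genes were Syt2, Syt4, Snap25, Syp, Syt17, Sv2b, Syn1, Syt1, Rims1, Snap47, Unc13a and Bsn. This count rested on single mice, and the share of all genes called moved with it. It was 0 when huFOXP2 mouse 1 was left out (0.00618% of all genes called), 7 for huFOXP2 mouse 2 (8.67%) and 6 for the moFoxp2 mouse (6.91%). It was 7, 22 and 4 for GFP mice 1, 2 and 3 (8.6%, 21.1% and 6.17%). Without both mice that stood apart it was 2 (Syt2 and Syt4, with 1.98% of all genes), and without the mouse as block it was 0 (0%). Relative to the pan-neuronal markers, which moved the median of all genes by -0.37, 5 genes were called, 3 more positive and 2 more negative. Under that scaling 205 of all genes were more positive and 3680 more negative. No gene of the 12 was called in all 6 fits without 1 mouse.

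Syt2 and Syt4 had the largest differences. For Syt2 the L5-6 minus L2-3 change on the log2 scale was -0.02, 1.77 and 1.78 in GFP mice 1 to 3, 2.87 in the moFoxp2 mouse, and 3.13 and 2.90 in huFOXP2 mice 1 and 2. All 3 FOXP2 mice exceeded all 3 GFP mice, and the spread among the GFP mice came from mouse 1 (difference 2.00 ± 0.42, adjusted p = 0.0127). For Syt4 the change was -1.85, -1.23 and -1.08 in the GFP mice, -0.19 in the moFoxp2 mouse, and 0.07 and -0.49 in the huFOXP2 mice, again without overlap (1.16 ± 0.22, adjusted p = 0.00989). Without huFOXP2 mouse 1, Syt2 gave 1.92 (adjusted p = 0.074) and Syt4 1.02 (adjusted p = 0.068), so the sizes moved little while the calls were lost. Snap25 moved by -0.17, 0.85 and 0.54 in GFP mice and by 1.23, 1.49 and 1.12 in the moFoxp2 and huFOXP2 mice (0.88 ± 0.22, adjusted p = 0.0194). It was lost without GFP mouse 3 (0.94, adjusted p = 0.053) or huFOXP2 mouse 1 (0.76, 0.094), and without both mice that stood apart it was 0.46 (adjusted p = 0.076).

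Syp and Syt17 had smaller differences. Syp changed from L2-3 to L5-6 by -0.61, 0.50 and 0.32 in GFP mice 1 to 3, by 0.62 in the moFoxp2 mouse and by 0.90 and 0.84 in the huFOXP2 mice, the moFoxp2 mouse lying close to GFP mouse 2 (0.70 ± 0.21, edgeR adjusted p = 0.0416). Syt17, a scarce synaptotagmin at 8.20 to 15.6 CPM over the 18 libraries, changed by -0.61, -0.07 and -0.41 in the GFP mice, by 0.14 in the moFoxp2 mouse and by 0.65 and -0.02 in the huFOXP2 mice (0.66 ± 0.20, adjusted p = 0.0387). Each was kept in 2 of the 6 fits without 1 mouse, and without huFOXP2 mouse 1 they gave 0.64 (adjusted p = 0.17) and 0.44 (adjusted p = 0.21).

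Some neuronal and non-neuronal markers were called in this comparison too, where 6.75% of all genes were called more positive and 8.66% more negative. Of 10 pan-neuronal markers, 2 were called more positive and 0 more negative, a share called near the 15.4% of all genes. Of 8 markers of layer 2-3 neurons, 7 were more positive and 0 more negative. More negative calls were made for 6 of 10 astrocyte markers, 7 of 9 endothelial and pericyte markers and 3 of 11 oligodendrocyte lineage markers, with 0 more positive in these 3 lists. The calls in these 5 lists came down to 1 without both mice that stood apart, a more negative one among the endothelial and pericyte markers. In that fit 1.98% of all genes were called. Oligodendrocyte lineage markers in L5-6 summed to 4658, 1539 and 2501 CPM in GFP mice 1 to 3 and to 1403 to 2124 CPM in FOXP2 mice. For the other layer pairs, 0 of 39 genes passed for L4 minus L2-3 (0% of all genes called, with 9 of 39 and 2830 of 15952 at an unadjusted p under 0.05) and 0 for L5-6 minus L4 (0.00627%, with 9 of 39 and 892 of 15952). DESeq2 called 2 (Syt4 and Unc13b) and 1 (Unc13b), beside 3.15% and 0.069% of all genes. Unc13b had the smallest p in both, with differences of -0.53 ± 0.14 (edgeR adjusted p = 0.0844) and 0.65 ± 0.13 (adjusted p = 0.403).

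Genes that work beside the release machinery were called mostly upward in L4 against L2-3, where 17.7% of all genes were higher and 18.8% lower. Of 14 genes of vesicle membrane and filling, 11 were higher and 1 lower in L4 than in L2-3, and of 13 genes of SNARE assembly and recycling (12 tested), 8 and 0. Of 10 presynaptic calcium channel subunits, 6 and 0 were called, of 14 active zone scaffold genes 9 and 0, and of 19 endocytosis genes 12 and 2, with list medians between 0.19 and 0.45. In the same order these were 11 and 1, 10 and 0, 7 and 0, 10 and 0, and 11 and 3 without both mice that stood apart. In that fit 38% of all genes were called. Relative to pan-neuronal markers they were 5 and 1, 6 and 1, 4 and 0, 3 and 0, and 6 and 3. Under that scaling 671 of 15295 genes were higher and 4141 lower. Slc17a7, the vesicular glutamate transporter VGLUT1, went from 323 ± 56.3 CPM in L2-3 to 649 ± 70.03 in L4 and 825 ± 183 in L5-6 (SD, n = 6), a log2 rise of 1.01 ± 0.14 in L4 and 1.36 ± 0.14 in L5-6. Slc17a6, which encodes VGLUT2, ran the other way in L5-6 but not in L4, at 95.8 ± 24.2, 107 ± 15.99 and 34.1 ± 18.5 CPM. Its log2 fold change in L5-6 against L2-3 was -1.59 ± 0.25. Cacnb4, a calcium channel beta subunit, rose at both steps from 38.9 ± 4.79 to 61.0 ± 7.45 and 89.5 ± 7.60 CPM.

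Of 24 other members of the same families (20 tested), 3 were higher and 5 lower in L4 and 5 higher and 4 lower in L5-6 than in L2-3, with medians of 0.00 and -0.04. These shares of 40% and 45% were near the 36.5% and 37.9% of all genes. The calls were 3 and 5, and 5 and 5, of 19 tested without both mice that stood apart, when 38% and 38.1% of all genes were called. Cplx3, a complexin known from subplate neurons, stood at 2.60 ± 1.02 CPM in L2-3, 2.79 ± 1.34 in L4 and 79.7 ± 30.7 in L5-6 (log2 4.90 ± 0.30 against L2-3). Syt6, a synaptotagmin of layer 6 neurons, stood at 5.47 ± 2.09, 8.41 ± 3.82 and 89.7 ± 26.8 CPM (4.03 ± 0.26). Both were also among the markers of layer 6 and subplate neurons used above. Syt15 (4.31 ± 2.01 CPM in L2-3 and 1.16 ± 0.313 in L4) and Vamp8 (11.4 ± 3.83 and 4.15 ± 0.914 CPM), an endosomal SNARE, were lower in L4 than in L2-3, with log2 fold changes of -1.80 ± 0.31 and -1.45 ± 0.21.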

How the data were processed

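Total RNA of dissected cortical layers was sequenced in 18 libraries (TruSeq total RNA, per the labels' protocols). The deposited table holds whole-number read counts per gene, made with STAR and HTSeq on mm10 per the submitters' processing notes. Not given in the sources used here were the tool versions, the gene models and whether counting used strand. Of the 39 genes, 25 overlap an annotated gene on the other strand and 10 one on the same strand, so reads of such neighbours may not be separable. Of 54446 identifiers, 54409 matched GENCODE M21, which gave exonic lengths and mm10 positions. Promoter sequences are from RefSeq (GRCm38.p6).

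Counts were tested in edgeR 4.0.16 (R 4.3.3, limma 3.58.1) with TMM scaling, filterByExpr (minimum count 10, minimum total 15), the quasi-likelihood test and Benjamini-Hochberg adjustment over all genes tested. The SE was taken from the F statistic, as the size of the log2 fold change over its root. Layer comparisons, and the tests of whether the FOXP2 effect differed from layer to layer, used the mouse as block, because the labels pool each layer within a mouse. Libraries of 1 mouse deviated together, with correlations of 0.262 to 0.698 over 15952 genes in 18 of 18 pairs. FOXP2 and GFP mice were compared without a block. Per-mouse changes are differences of log2(CPM + 0.5), and ratios added 0.5 counts to each gene. Nothing says whether the mice share a litter.

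Genes named were, in each layer comparison, up to 6 per direction past 0.05 with the largest fold change, up to 5 in the difference between layers, the 3 of smallest p where none passed, and a set always given (Syt1, Snap25, Stx1a, Syn1, Unc13a and the genes of the ratios). Others named beyond this were chosen after their values were seen. The 39 genes, marker lists and related lists were chosen with earlier results of these data known. Alternatives were RLE size factors, scaling to 10 pan-neuronal genes, DESeq2 1.42.0, no filter on low counts, each mouse left out, GFP or FOXP2 mice alone and no block. A further alternative, leaving out GFP mouse 1 and huFOXP2 mouse 1 together, was chosen after seeing the data. The scripts were tested on simulated data.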

Additional observations from a re-analysis of the deposited data

Results flagged for a closer look

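For 32 of the genes the 6 libraries of each layer were checked for 1 library far from the other 5 by Dixon's gap test at its 95% critical value. Of 96 such sets, 12 had a library apart, and chance marks about 1 set in 20. GFP mouse 1 was the library apart in 11 of the 12. In L2-3 it was high for Syt2 (14.7 CPM, the next library at 5.60) and Cplx1 (364, next 260 CPM), and low for Doc2b (54.2, next 76.2 CPM) and Rab3c (106, next 152 CPM). In L4 it was low for Rab3c (119, next 178 CPM) and Snap47 (359, next 406 CPM). In L5-6 it was low for Syt1 (772, next 1228 CPM), Stx1a (229, next 363 CPM), Rab3a (226, next 367 CPM), Doc2a (20.6, next 34.9 CPM) and Snap47 (198, next 315 CPM). The remaining case was Rims2 in L5-6 of huFOXP2 mouse 1 (107, next 98.8 CPM).

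The effect of FOXP2 differed between L5-6 and L2-3 for 12 genes by the test of that difference (edgeR, adjusted p from 0.00989 to 0.0499). The log2 differences were 2.00 for Syt2, 1.16 for Syt4, 0.88 for Snap25, 0.70 for Syp, 0.66 for Syt17, 0.64 for Sv2b, 0.62 for Syn1, 0.60 for Syt1, 0.59 for Rims1, 0.49 for Snap47, 0.41 for Unc13a and 0.32 for Bsn. The per-mouse changes of the FOXP2 and GFP mice did not overlap for 11 of these genes and overlapped for Syn1. These genes were picked by the same difference, so the lack of overlap gives no separate support. The share of all genes without overlap was not computed. None of the 12 was called without huFOXP2 mouse 1, and 2 (Syt2 and Syt4) were called without that mouse and GFP mouse 1. The share of all genes called in these 2 fits was 0.00618% and 1.98%.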

How the results depend on the processing

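Calls of layer differences depended on which mice entered and on scaling. GFP mice alone gave 14 members for L5-6 against L2-3 (22.7% of all genes) and 5 for L4 against L2-3 (6.06%), with fewer samples. Rims1 for L5-6 against L2-3 was then -0.0343. Leaving out 1 mouse gave 22 to 34 calls for L5-6 against L2-3 (29.2% to 44.6% of all genes) and 20 to 31 for L4 against L2-3 (23.3% to 46.3%). For L5-6 against L4 it gave 10 to 15 (24% to 33.5%). It gave 0 to 22 for the FOXP2 effect in L5-6 minus L2-3 (0.00618% to 21.1%) and 0 to 2 for FOXP2 against GFP in L2-3 (0.0192% to 1.26%). Relative to pan-neuronal markers, L5-6 against L4 gave 20 calls (56.8% of all genes) and the FOXP2 effect in L5-6 minus L2-3 gave 5 (24.4%). Neither count exceeded the share of all genes. Under that scaling Cplx2 for L4 against L2-3 was -0.00222, and for L5-6 against L4 Unc13a was 0.14, Cplx2 0.25 and Sv2a 0.21. DESeq2 called 3 genes for FOXP2 against GFP in L2-3 (4.95% of all genes), 2 for the FOXP2 effect in L4 minus L2-3 (3.15%) and 1 for L5-6 minus L4 (0.069%). Without a filter on low counts these became 3, 7 and 7 (3.04%, 4.06% and 0.781% of all genes). There was then 1 for FOXP2 against GFP in L4 (0.683%), 1 in L5-6 (1.11%) and 23 for the FOXP2 effect in L5-6 minus L2-3 (10.9%). That effect gave 2 without GFP mouse 1 and huFOXP2 mouse 1 (1.98%) and 0 with no replicate block (0%). The cause was not tested.

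With no replicate block the layer comparisons gave 21 (L5-6 against L2-3), 21 (L4 against L2-3) and 10 calls (L5-6 against L4). Of all genes, 28.5%, 26.4% and 23.3% were called in these fits, so the last count was near the share of all genes. FOXP2 and GFP mice of the same number shared only that number (correlations of -0.289 to 0.369 over 9 pairs). A replicate block over numbers 1 and 2 gave 0 calls in all 4 comparisons (0.0194% to 0.0475% of all genes). Of the 27 ratio differences, 6 changed sign without 1 mouse, the means over 6 mice lying between -0.05 and 0.04: Doc2b to Doc2a and Rims2 to Rims1 in L5-6 minus L2-3, Rab3c to Rab3a and Syt2 to Syt1 in L5-6 minus L4, and Syn1 to Syn2 and Sv2b to Sv2a in L4 minus L2-3. With 3 mice against 3, and 1 moFoxp2 mouse, human and mouse cDNA were not compared. For FOXP2 against GFP, p-values measure only the spread between these mice. In tests with the mouse as block or pair, they measure only the spread of layer differences among these mice. Counts of the scarcest genes (Syt10, Syt12, Syt2) limit their precision.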
